A study of Mus musculus with 5 samples.

Results

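The nuclear-encoded subunits of the mitochondrial respiratory chain and of the ATP synthase were described in sorted mouse bone marrow progenitors. Members were taken by gene symbol: every gene whose symbol starts with Ndufa, Ndufb, Ndufc, Ndufs or Ndufv, Sdha to Sdhd, Uqcr, Cyc1, Cox4i, Cox5 to Cox8 or Atp5, with the Ndufaf and Sdhaf assembly factors dropped and the transcript with the most counts kept for each gene. This gave 87 of 24399 genes. They were 38 genes of complex I, 4 of complex II, 9 of complex III, 18 of complex IV, 17 of complex V and 1 pseudogene symbol, Ndufs5-ps, which the rule also takes and which is kept outside the complexes. The subunits encoded by mitochondrial DNA were not analysed here.

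The cells were LSK cells (lineage negative, Sca1 positive, cKit positive), the marrow fraction that contains haematopoietic stem cells and multipotent progenitors. They came from C57BL/6 mice aged 12 months in a study of the germ-line loss of Aid. The titles assign 3 libraries to KO and 2 to WT, and both groups share strain, age and sort. The genotype field of the KO libraries reads Aid+/-, against their title. Nothing in the labels ties each library to its own animal, so each p rests on the spread between these libraries, which may be technical. With 1 transcript kept for each gene, library totals were between 29964556 (WT library 1) and 39691066 counts (KO library 3), and the members held between 0.904% and 1.03% of them.

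The respiratory chain passes electrons from NADH (through complex I) and from succinate (through complex II) to coenzyme Q, on through complex III and cytochrome c, and finally to oxygen at complex IV. Complexes I, III and IV pump protons across the inner mitochondrial membrane, and complex V, the ATP synthase, lets them flow back to make ATP. Haematopoietic stem cells are known for a large reliance on glycolysis while quiescent, and their differentiation is accompanied by a rise in oxidative phosphorylation.

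Most members differed little between the groups. Of 83 members tested, Ndufa4 rose, 1.35-fold, and no member fell at an adjusted p under 0.05 by edgeR's quasi-likelihood test with Benjamini-Hochberg adjustment over all 14565 tested genes. Over all tested genes, 0.79% were called higher and 1.18% lower. At an unadjusted p under 0.05, 8 members were higher and 0 lower, where 6.76% of all tested genes were higher and 7.02% lower. Fitted changes leaned upward: 61 of the 83 (73.5%) had a log2 fold change above 0, against 50.1% of all tested genes, and the median was 0.10 on the log2 scale, against 0.001. Most changes were small, with 72 members within 0.3 of 0 and 34 within 0.1. Much of this lean came with a single library. Without KO library 1 the members' median was 0.03 and 46 of 82 (56.1%) were above 0, while Ndufa4 was still called.

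KO library 1 stood apart from the others in a way tied to transcript length. Across all tested genes, the Spearman correlation of a gene's log2 deviation from its mean over the libraries with its transcript length was -0.20 in KO library 1 and between 0.02 and 0.08 in the other 4. The members are short, with a median length of 731.5 bases against 2802 over all tested genes. Medians of the members, as a whole, by complex and by length, are therefore also given without KO library 1. Those by promoter motif and of related gene lists are over all libraries only.

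The sort can be checked on markers of the cells it keeps and of those it could let through. None of 10 LSK markers was called, and their summed level was 4417 to 4631 CPM in KO and 4515 to 4521 CPM in WT libraries, where CPM is the count scaled to the adjusted library total. Of 12 erythroid markers, 5 were called higher, with a summed level of 1175 to 1548 CPM in KO and 861 to 979 CPM in WT libraries. The largest part of that level was Car2, called higher, at 825 to 1105 CPM in KO and 606 to 724 CPM in WT libraries. Epor and Tfrc alone among these markers had log2 fold changes below 0, at -0.15 and -0.07, and were not called. Of 11 neutrophil and monocyte markers, 4 were called lower and 1 higher, with sums of 3112 to 3869 CPM and 4493 to 4810 CPM. Mpo made up most of these sums, at 2219 to 2869 CPM in KO and 3103 to 3443 CPM in WT libraries. It was not called (edgeR adjusted p = 0.0747). Of 5 megakaryocyte markers 2 were called lower, with sums of 345 to 550 CPM and 613 to 705 CPM. The largest part of these sums was Vwf, which was not called (edgeR adjusted p = 0.508). Pf4 alone among them had a log2 fold change above 0, at 0.79, and was not called either. Of 5 stromal and endothelial markers Pecam1 was called lower, with sums of 126 to 159 CPM and 202 to 209 CPM. These sums were nearly all Pecam1, at 125.9, 156.4 and 141.2 CPM in KO and 207.5 and 197.4 CPM in WT libraries. Cdh5, Col1a1, Cxcl12 and Lepr were at 2.2 CPM or less in every library, so the sums are those of 1 gene. Of 6 T and NK cell markers Klrb1c was called lower, with sums of 150.2 to 175 CPM and 172 to 178 CPM. None of the B cell or mast cell and basophil markers tested was called, and the B cell gene Pax5 did not pass the filter on low counts. The part of these differences in the members' changes was not tested, and in bulk RNA a change in the mix of cells and a change in RNA per cell cannot be told apart.

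Some sequence motifs, which the choice by symbol did not use, were more frequent in the members' promoters than in those of all coding genes. Other sets of mitochondrial or active genes were not compared, so the surplus is not shown to be particular to the members. RefSeq promoter windows of GRCm38.p6, from 250 bases before to 50 bases after the start, were matched for 69 of the 87 members (74 windows), and 3 motifs known from promoters of genes for mitochondrial proteins were searched on both strands. NRF1 is a factor best known for driving such genes, and its motif GCGCANGCG was in 28.4% of the members' windows against 8.58% of windows of all coding genes. The ETS motif CCGGAAG, which GABP binds, was in 23.0% against 11.6%. The YY1 motif AAGATGGCG was in 9.46% against 1.83%, and the median position of its matches in members was 24 bases after the start. For NRF1 and ETS the medians were 42 and 18 bases before it. Any of the 3 was in 37 of the 74 windows of members, and in 19.6% of coding windows. Common promoter elements had no such surplus: the CCAAT box was in 41.9% and 38.2%, the GC box GGGCGG in 40.5% and 46.2%, and TATAAA in 12.2% and 12.6%.

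The following windows of 250 bases before the start, credited to RefSeq on GRCm38.p6, show the range: the called member without any of the motifs, a complex II subunit with NRF1 and ETS, a complex I subunit with NRF1 at several places, and an ATP synthase subunit with ETS and YY1. They were picked after their values were seen. Capitals mark the motifs, in either orientation.
Ndufa4 (chr6:11907451-11907700, minus strand): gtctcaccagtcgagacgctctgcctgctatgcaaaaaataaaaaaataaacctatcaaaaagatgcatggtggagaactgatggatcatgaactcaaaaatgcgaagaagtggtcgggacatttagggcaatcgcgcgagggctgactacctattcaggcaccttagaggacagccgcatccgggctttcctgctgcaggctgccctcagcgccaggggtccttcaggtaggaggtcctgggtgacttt
Sdhd (chr9:50603850-50604099, minus strand): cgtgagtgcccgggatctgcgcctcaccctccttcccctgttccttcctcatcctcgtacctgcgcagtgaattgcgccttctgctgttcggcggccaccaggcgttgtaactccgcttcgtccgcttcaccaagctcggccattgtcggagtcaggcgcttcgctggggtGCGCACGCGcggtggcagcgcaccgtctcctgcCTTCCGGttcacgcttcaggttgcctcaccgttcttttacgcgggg
Ndufb4 (chr16:37654369-37654618, minus strand): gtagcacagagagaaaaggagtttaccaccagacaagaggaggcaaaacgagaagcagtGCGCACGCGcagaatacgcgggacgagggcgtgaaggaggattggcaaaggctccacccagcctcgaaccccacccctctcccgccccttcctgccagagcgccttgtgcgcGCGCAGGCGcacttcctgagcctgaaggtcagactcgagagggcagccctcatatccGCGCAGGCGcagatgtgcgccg
Atp5j (chr16:84834977-84835226, minus strand): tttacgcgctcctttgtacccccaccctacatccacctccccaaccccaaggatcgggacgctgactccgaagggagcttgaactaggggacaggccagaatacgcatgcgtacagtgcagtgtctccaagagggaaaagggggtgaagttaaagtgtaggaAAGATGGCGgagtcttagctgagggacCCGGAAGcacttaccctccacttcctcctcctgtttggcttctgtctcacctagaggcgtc

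In Sdhd the NRF1 match begins 79 and the ETS match 46 bases before the start. In Ndufb4 the NRF1 matches begin 191, 79 and 22 bases before it. In Atp5j the YY1 match begins 88 and the ETS match 61 bases before the start, and a second RefSeq window of this gene has no match. Atp5j is not typical for YY1, as the matches in all other members begin 22 to 35 bases after the start. Among the matched members, 33 had none of the 3 motifs, 28 had 1 kind and 8 had 2 kinds. The NRF1 motif was in 8 of 33 matched genes of complex I, 2 of 3 of complex II, 2 of 5 of complex III, 1 of 13 of complex IV and 7 of 15 of complex V. The change between the groups is given by motif without a test. The median log2 fold change was 0.13 for 19 tested members with the NRF1 motif and 0.12 for 47 without. It was 0.18 for 17 members with the ETS motif and 0.10 for 49 without, and 0.03 for 7 with the YY1 motif and 0.13 for 59 without. These are descriptions of letters in a window, not of binding.

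Levels can be compared between genes only per length, here as mean CPM per kilobase of the matched GENCODE transcript over the 5 libraries. That transcript may be longer than the counted one. The catalytic beta and alpha subunits of the ATP synthase led, Atp5b at 705 and Atp5a1 at 558 CPM per kilobase. In the other complexes the highest were Cox4i1, which encodes complex IV subunit 4, at 373, Uqcrh, the hinge protein of complex III, at 333, Ndufa4 at 297, and Sdha, the flavoprotein of complex II, at 178. Within complex II the order was Sdha, then the membrane anchor Sdhd at 129, the iron-sulphur subunit Sdhb at 91.7 and the other anchor Sdhc at 40.7. The median member stood at 65.6 CPM per kilobase in complex I, 110.2 in II, 83.3 in III, 61.0 in IV and 119 in V.

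Several subunits come as isoforms encoded by separate genes, and the isoforms known from most tissues were the abundant ones here. Cox4i1 stood at 373 CPM per kilobase against 1.86 for Cox4i2. Cox6a1 stood at 179 CPM per kilobase against 3.19 for the heart and muscle form Cox6a2, and Cox7a2 at 131 against 1.29 for the muscle form Cox7a1. As shares of the counts of each pair, without regard to length, the abundant forms held 99.4% to 99.6%, 97.3% to 98.6% and 98.8% to 99.8% over the 5 libraries.

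The pair for subunit 6B was less one-sided. Cox6b1 stood at 242 CPM per kilobase and Cox6b2, known as the testis form, at 38.1, or 10.2% to 15.8% of the counts of the pair, with the WT libraries at both ends of that range. Cox8a was the form counted for subunit 8, since Cox8b and Cox8c had 0 counts in every library, where 3 counts, taken as the limit that 0 allows, equal 0.076 to 0.1 CPM. That limit covers counting error only. Cox7b2 stood at 0.085 CPM per kilobase from 9 counts, against 83.8 for Cox7b. The c subunit of the ATP synthase ring, the same mature protein from different genes, stood at 197 CPM per kilobase for Atp5g3, which held 96.1% to 98.1% of the counts of its 3 genes, against 1.92% to 3.72% for Atp5g1. The level of Atp5g1 per kilobase is uncertain, since its transcripts of 596 and 4715 bases had nearly the same counts (719 and 761). Ndufa4l2, the paralog of Ndufa4 known to respond to hypoxia, stood at 0.263 from 42 counts.

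Some members were listed far below their partners in the same complex, and several of these share sequence with other genes. Of 86 members with a matched transcript, 48 shared some words of 50 bases with another gene, pseudogenes included, and 15 shared at least 30% of them. Their median level was 38.3 CPM per kilobase, against 86.3 for the members that shared none. Atp5l, subunit g of the ATP synthase, shared 84.85% of its words, with 12 pseudogenes among the sharers, and stood at 0.468 CPM per kilobase from 49 counts.

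Other low members of this kind were Cox7c, which shared 52.95% and stood at 0.470 CPM per kilobase from 44 counts, and Atp5md, the DAPIT subunit, which shared 40.58% and stood at 2.07 from 139 counts. Ndufs5 shared 41.18% and had 911 counts, while 2325 were listed under Ndufs5-ps. High sharing did not always go with so low a level, as Atp5h stood at 82.6 CPM per kilobase with 50.52% shared and Ndufa12 at 44.9 with 53.77%. Both were still below the median of 86.3 for the members that shared none. Across members the Spearman correlation of level with sharing was -0.18. The sources used here do not say how reads that match several genes were counted, so the levels of these members are uncertain, as is the split between Ndufs5 and its pseudogene.

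**Figure D1:**
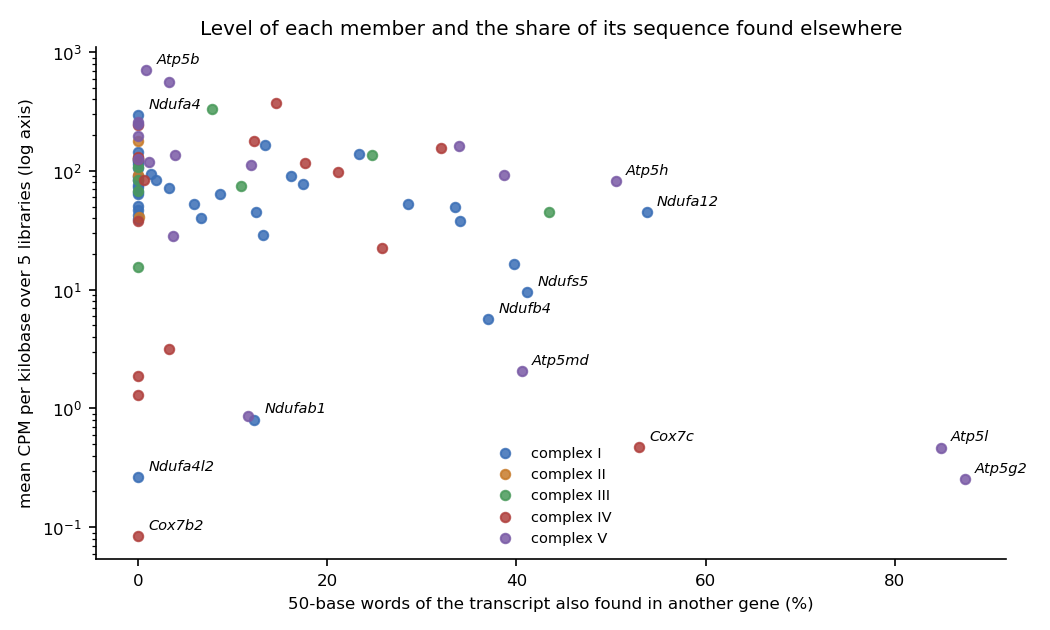
Mean CPM per kilobase of each member over the 5 libraries (log axis) against the percentage of its 50-base words found in another gene, with colours for complexes I to V; members with 0 counts cannot be drawn. Atp5l, Atp5g2 and Cox7c lie low at high sharing, while Atp5h and Ndufa12, also at over 50%, lie well above these.

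Complex I had 38 members tested, with 1 called higher and 0 lower. Their median log2 fold change was 0.09, with 28 above 0, and 0.009 with 20 above 0 without KO library 1. Every KO library lay above every WT library in 10 of the 38, and in 22 of all 83 members (26.5%), while 16.5% of all tested genes separated that way. The reverse held for 2 members (2.41%) and for 16.3% of all tested genes.

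Ndufa4 was the called member. Its protein was first assigned to complex I and is now known as a subunit found with complex IV. It was at 226.8, 189.7 and 190.5 CPM in KO libraries 1 to 3 and at 152.7 and 146.2 CPM in WT libraries 1 and 2. All KO libraries were above both WT libraries, and the lowest KO library was further from the WT libraries than these were from each other. The log2 fold change was 0.44 ± 0.10 (SE; adjusted p = 0.040, edgeR's quasi-likelihood test with Benjamini-Hochberg adjustment, n = 3 and 2). Without KO library 1 it was 0.35 (edgeR adjusted p = 0.0101). An offset for transcript length gave 0.39 (edgeR adjusted p = 0.0221). The call was lost without KO library 3 (edgeR adjusted p = 0.095), without WT library 1 (0.377) and without WT library 2 (0.398). It was also lost with all transcripts of a gene summed (edgeR adjusted p = 0.0798) and in a fit blocked by replicate (0.0555). None of the words of its transcript were found in another gene.

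Ndufab1 encodes the mitochondrial acyl carrier protein, which is also a subunit of complex I. It had 196, 129 and 127 counts in the KO libraries and 23 and 50 in the WT libraries, or 5.43, 3.30 and 3.22 CPM against 0.767 and 1.28 CPM. The groups did not overlap, at a low mean level of 0.804 CPM per kilobase of a 3479-base transcript. The log2 fold change of 1.95 ± 0.48 did not pass the test (edgeR adjusted p = 0.061), and without KO library 1 it was 1.66 (edgeR adjusted p = 0.079). Of the 3430 words of that transcript, 421 (12.27%) were shared with other genes, 2 pseudogenes among them. The counted transcript may be shorter, so the share in it is uncertain.

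Ndufa5, an accessory subunit of the peripheral arm, was at 45.0, 38.6 and 36.9 CPM in KO and 31.7 and 33.6 CPM in WT libraries. Its groups did not overlap either, and its log2 fold change of 0.30 ± 0.13 did not pass the test (edgeR adjusted p = 0.342). Ndufb4, a membrane arm subunit, was at 8.06, 4.56 and 6.76 CPM against 4.17 and 3.89 CPM. KO library 2 was close to the WT libraries, and its log2 fold change of 0.68 ± 0.32 did not pass (edgeR adjusted p = 0.370). The other members whose KO libraries all lay above the WT libraries were Ndufa1, Ndufa2, Ndufa10, Ndufb6, Ndufc2 and Ndufs8, with log2 fold changes of 0.10 to 0.24.

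The core subunits, which carry the flavin and the iron-sulphur clusters, showed no common direction. Ndufs1, the largest of them, was at 142.2, 135.6 and 140.8 CPM in KO and at 145.7 and 132.3 CPM in WT libraries. The WT values enclosed the KO values, with a log2 fold change of 0.01 ± 0.09. Ndufv1, the NADH-binding subunit, had a log2 fold change of -0.07 ± 0.09 and its partner Ndufv2 one of 0.14 ± 0.12. Ndufs7 and Ndufs8, which hold the last clusters before coenzyme Q, had values of opposite sign, -0.22 ± 0.16 and 0.18 ± 0.10.

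Ndufb8, a membrane arm subunit and the next most abundant per kilobase after Ndufa4, was at 129.1, 109.6 and 111.1 CPM in KO and 103.3 and 112.4 CPM in WT libraries, with a log2 fold change of 0.11 ± 0.10. Ndufv3 was at 85.8, 63.7 and 74.4 CPM against 73.6 and 72.8 CPM, and its groups overlapped. Its transcripts held different totals, 13581 and 8669 counts, so that its level depends on the transcript kept. Ndufa13, also known as GRIM-19, was the complex I member with every KO library below every WT library: 58.7, 64.6 and 67.30 CPM against 67.31 and 69.0 CPM. KO library 3 and WT library 1 were nearly equal there, and the log2 fold change was -0.10 ± 0.10.

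**Figure D2:**
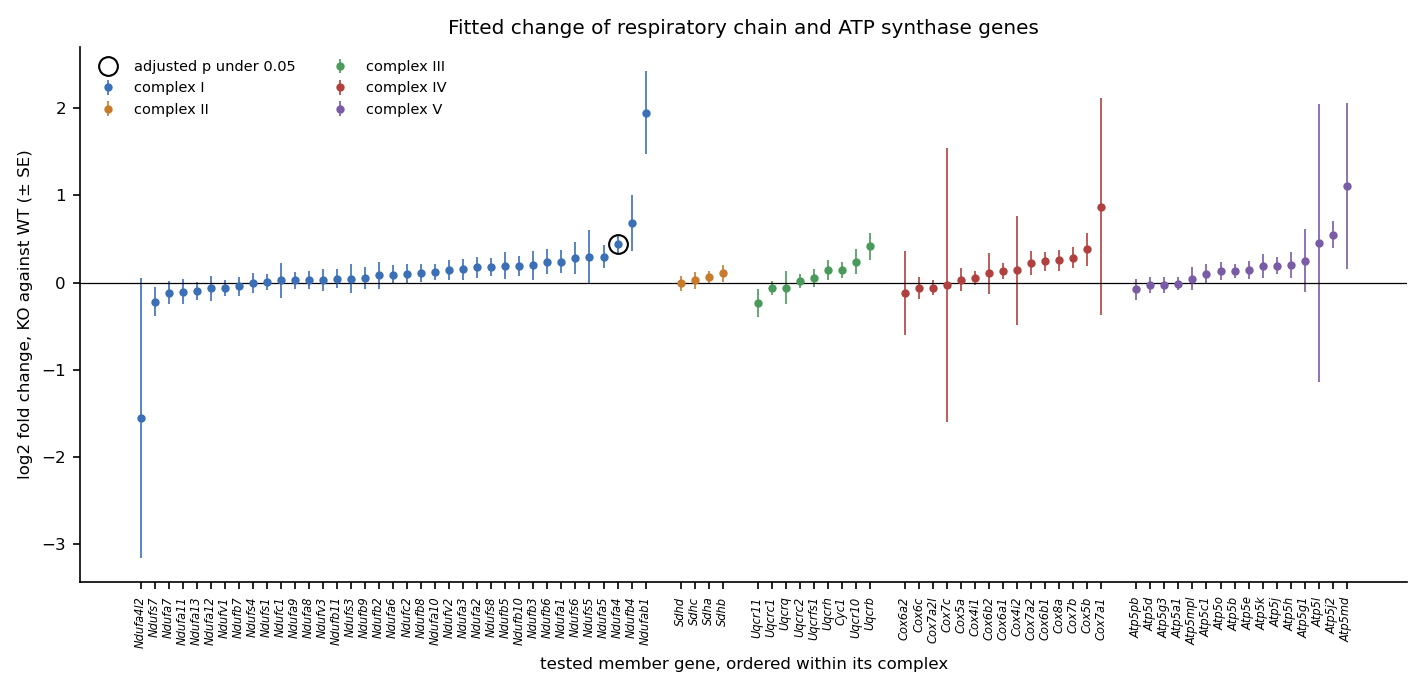
Log2 fold change of KO against WT with its SE for the tested members of complexes I to V that are reported here, ordered by value within each complex; the ring marks an adjusted p under 0.05. Most points lie within 0.3 of 0, Ndufa4 alone is ringed, and the longest bars belong to members with few counts such as Ndufa4l2, Cox7c and Atp5l.

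Complex II, which is also the succinate dehydrogenase of the citric acid cycle, had 4 members tested and 0 called, with a median log2 fold change of 0.04 and 3 above 0. Without KO library 1 the median was 0.0007, with 2 of 4 above 0. The values of Sdha were 544.5, 511.2 and 522.2 CPM in KO and 513.2 and 494.8 CPM in WT libraries. Sdhb was at 103.6, 106.2 and 113.3 CPM against 104.1 and 96.4 CPM. The groups overlapped in both genes, through KO library 2 for Sdha and KO library 1 for Sdhb. For the membrane anchors, Sdhc was at 142.3, 120.4 and 127.6 CPM against 128.7 and 126.8 CPM, and Sdhd at 163.6, 160.3 and 150.5 CPM against 160.6 and 157.6 CPM. No KO library stood outside the WT range in the same direction in all 4 genes. Log2 fold changes were 0.06 ± 0.08 for Sdha, 0.10 ± 0.09 for Sdhb, 0.03 ± 0.10 for Sdhc and -0.01 ± 0.08 for Sdhd, and none passed the test.

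Complex III, the cytochrome bc1 complex, had 9 members tested and 0 called, with a median log2 fold change of 0.05 (0.006 without KO library 1). Uqcrb, the ubiquinone-binding protein, was at 28.8, 23.8 and 27.3 CPM in KO and 20.8 and 19.2 CPM in WT libraries. The groups did not overlap, and the log2 fold change of 0.41 ± 0.15 did not pass (edgeR adjusted p = 0.242). It shared 43.42% of its words with other genes. Cyc1, the cytochrome c1 that hands electrons to cytochrome c, was at 99.0, 109.1 and 110.6 CPM against 96.3 and 95.8 CPM, also without overlap, at a log2 fold change of 0.15 ± 0.09 (edgeR adjusted p = 0.544).

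The smallest subunits of complex III split. Uqcr10 was at 40.9, 52.3 and 57.6 CPM in KO and 41.3 and 43.7 CPM in WT libraries, a log2 fold change of 0.24 ± 0.14. Uqcr11 was at 24.8, 31.3 and 36.6 CPM against 34.99 and 37.4 CPM, a log2 fold change of -0.23 ± 0.16. In both genes KO library 1 was the lowest of all 5 libraries and KO library 3 the highest of the KO libraries, unlike most short members. Uqcrc1 and Uqcrc2, the large core proteins, moved little. Uqcrc1 was at 203.7, 203.5 and 205.2 CPM against 216.9 and 209.3 CPM, which put every KO library below both WT libraries, at a log2 fold change of -0.06 ± 0.08. Uqcrc2 was at 269.2, 249.7 and 261.5 CPM against 265.0 and 249.4 CPM, with overlap. Uqcrh was at 224.4, 171.8 and 172.0 CPM against 167.8 and 174.6 CPM, and there KO library 1 was alone above the rest.

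Complex IV, the cytochrome c oxidase, had 15 of its 18 members tested and 0 called, with a median log2 fold change of 0.14 (0.05 without KO library 1). In 5 of the 15, every KO library lay above every WT library: Cox5b, Cox6a1, Cox6b1, Cox7b and Cox8a. Cox7b, a small membrane subunit, was at 106.9, 80.5 and 83.7 CPM in KO and 75.6 and 72.6 CPM in WT libraries. Cox6b1, which joins the dimer of the enzyme, was at 183.9, 142.7 and 152.0 CPM against 138.4 and 130.7 CPM. Cox8a, another small membrane subunit, was at 87.0, 69.7 and 67.8 CPM against 61.7 and 63.7 CPM.

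KO library 1 was the highest in all 3 by a clear margin, and the others lay just above WT. Their log2 fold changes were 0.29 ± 0.12 for Cox7b (edgeR adjusted p = 0.325), 0.25 ± 0.11 for Cox6b1 (0.342) and 0.26 ± 0.12 for Cox8a (0.381). Without KO library 1 they were 0.15, 0.13 and 0.13. Cox6a1 was at 110.9, 101.1 and 105.8 CPM against 98.2 and 94.6 CPM, with less of a gap between KO libraries, at a log2 fold change of 0.14 ± 0.09.

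The most abundant member of complex IV, Cox4i1, was flat at 298.0, 278.1 and 292.8 CPM in KO and 286.8 and 270.5 CPM in WT libraries, a log2 fold change of 0.06 ± 0.08. Cox7a2 was at 111.8, 77.7 and 85.7 CPM against 74.1 and 82.7 CPM, with KO library 2 inside the WT range. Cox7a2l was at 127.5, 130.4 and 128.1 CPM against 138.0 and 130.1 CPM, a log2 fold change of -0.06 ± 0.09. The minor isoforms were too low for a firm value. Cox4i2 had 249 counts in all and a log2 fold change of 0.14 ± 0.62, Cox6a2 395 counts and -0.12 ± 0.48, and Cox7a1 93 counts and 0.87 ± 1.24. Cox6b2 was at 28.1, 17.1 and 19.9 CPM against 15.7 and 24.6 CPM, so that both groups spread widely, at a log2 fold change of 0.10 ± 0.23.

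Complex V had 16 of its 17 members tested and 0 called, with a median log2 fold change of 0.14 (0.06 without KO library 1). The catalytic head was steady. Atp5a1 was at 1428, 1344 and 1351 CPM in KO and 1418 and 1356 CPM in WT libraries, so that the groups overlapped. Atp5b was at 1517, 1343 and 1339 CPM against 1314 and 1238 CPM, with all KO libraries above both WT libraries. Their log2 fold changes were -0.01 ± 0.07 and 0.13 ± 0.08 (edgeR adjusted p = 0.963 and 0.509). Of the central stalk, Atp5c1 (gamma) was at 0.10 ± 0.11, Atp5d (delta) at -0.03 ± 0.09 and Atp5e (epsilon) at 0.14 ± 0.11 as log2 fold changes.

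Atp5j2, subunit f of the membrane part, came closest to a call in this complex. It was at 34.1, 28.5 and 29.6 CPM in KO and 18.9 and 23.1 CPM in WT libraries. The groups did not overlap, and KO libraries 2 and 3 were close to each other. The log2 fold change was 0.55 ± 0.16 (edgeR adjusted p = 0.112), and 0.47 without KO library 1 (edgeR adjusted p = 0.0985). In the peripheral stalk, Atp5j (F6) was at 93.6, 88.1 and 79.7 CPM against 75.2 and 76.97 CPM, without overlap, at 0.19 ± 0.10 on the log2 scale (edgeR adjusted p = 0.432). Its partners Atp5h (subunit d) at 0.20 ± 0.15, Atp5o (OSCP) at 0.13 ± 0.10 and Atp5pb (subunit b) at -0.08 ± 0.12 had no common size or sign. Of the c subunit genes, Atp5g3 was at 148.8, 136.5 and 139.2 CPM against 149.1 and 139.3 CPM, and Atp5g1 at 2.91, 4.76 and 5.39 CPM against 3.13 and 4.17 CPM. In both the groups overlapped. Atp5g2, with 35 counts in all and 87.39% of its words shared, was not tested. Ndufs5-ps was at 16.4, 14.0 and 12.5 CPM in KO and 10.3 and 9.85 CPM in WT libraries, at a log2 fold change of 0.50 ± 0.20 (edgeR adjusted p = 0.295).

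**Figure D3:**
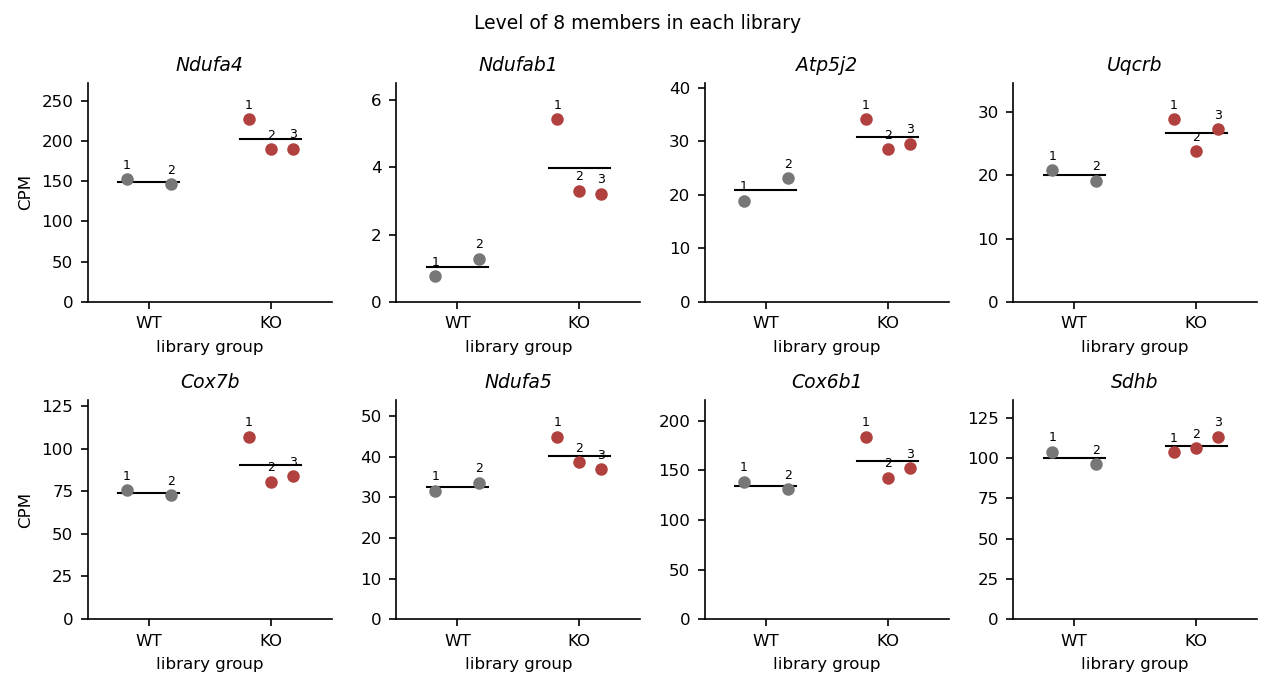
CPM of 8 members in each library, with digits for the replicate and a line for the group mean, each axis starting at 0. KO libraries lie above WT libraries in the first 7 panels, KO library 1 is highest in those panels, and Sdhb is shown as a member whose groups overlap.

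Summed over the members of a complex, the groups were close. Complex I summed to 2727, 2403 and 2446 CPM in KO and 2376 and 2364 CPM in WT libraries, a ratio of means of 1.07. This was the sum in which every KO library lay above both WT libraries. It includes Ndufa4, whose protein is now known as found with complex IV. Between KO library 2 and WT library 1, the gap in Ndufa4 alone (189.7 against 152.7 CPM) was wider than that in the sum. The separation of complex I therefore rests on Ndufa4. Complex II summed to 954, 898 and 914 CPM against 907 and 876 CPM, a ratio of 1.03. Complex III summed to 1036, 972 and 1010.3 CPM against 978 and 965 CPM, a ratio of 1.04.

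The sums of complexes IV and V also overlapped between the groups. Complex IV summed to 1258, 1051 and 1105 CPM in KO and 1072 and 1027 CPM in WT libraries, with the highest ratio, 1.08. Complex V summed to 4297, 3828 and 3838 CPM against 3928 and 3702 CPM, a ratio of 1.05. KO library 1 had the highest sum in every complex. Sums are led by the most abundant members, in complex V by Atp5a1 and Atp5b, and without this pair the ratio of complex V was still 1.05.

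**Figure D4:**
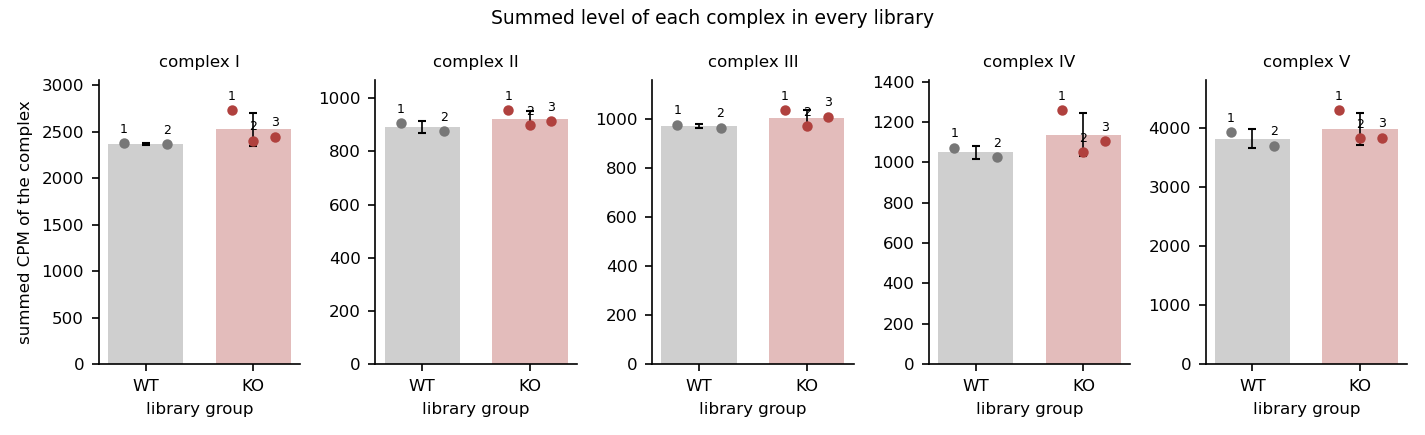
Summed CPM of each complex, with bars for the group mean, error bars for the SD (n = 3 KO, n = 2 WT) and a numbered point for each library. KO library 1 is the highest point in every panel, and KO libraries 2 and 3 lie near the WT libraries.

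The same library led the members' deviations. The median log2 deviation of the 83 members from their mean over the libraries was 0.17 in KO library 1, -0.04 in KO library 2, 0.003 in KO library 3, -0.03 in WT library 1 and -0.06 in WT library 2. Complex IV and complex V deviated most in KO library 1, by 0.32 and 0.21, and complex III not at all in that direction, at -0.03, while its median was 0.12 in KO library 3. All tested genes under 1000 bases had a median deviation of 0.09 in KO library 1, and those of at least 1000 bases one of 0.0002.

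Length and change were related among the members too. The 55 tested members under 1000 bases had a median log2 fold change of 0.14, with 43 above 0, and every KO library lay above every WT library in 16 of them (29.1%). The 1329 tested genes of that length had a median of 0.02, with 15.6% separated in that way. The 27 longer members had a median of 0.03. Without KO library 1 the median was 0.035 for the short members and -0.02 for the longer ones. An offset for transcript length in each library left a median of 0.06 over all members, with 53 of 83 above 0. The source of the length trend was not tested.

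**Figure D5:**
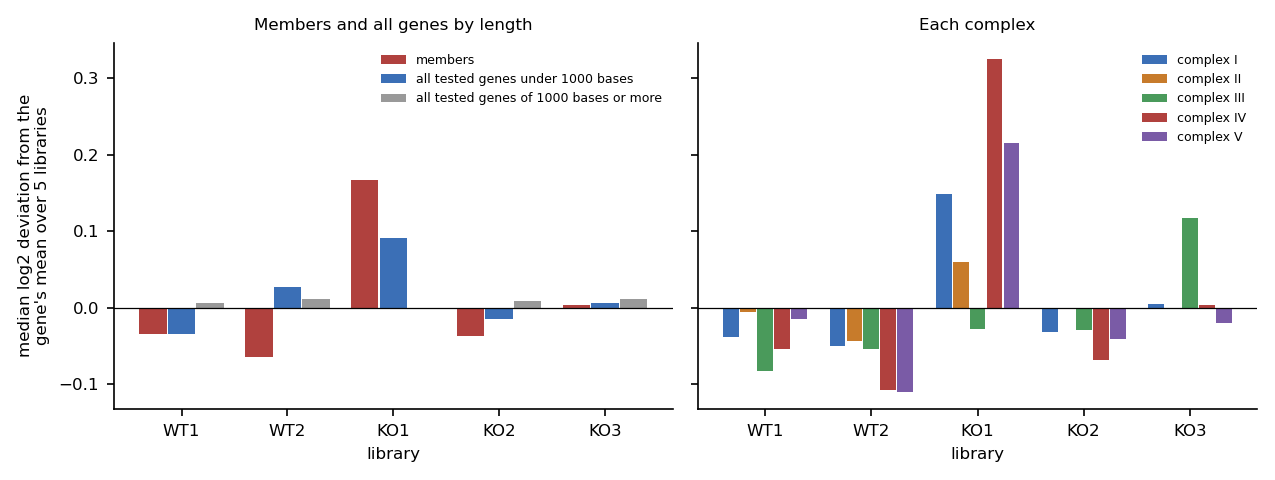
Median log2 deviation from the mean over the 5 libraries, per library, for the members and all tested genes by length (left) and for each complex (right). The bars of KO library 1 are the highest for the members, for short genes and for complexes I, II, IV and V, and complex III is highest in KO library 3.

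Genes that build, feed and regulate the chain gave 0 calls in either direction. Of 51 assembly factors tested, 36 had a log2 fold change above 0, with a median of 0.07. Those with the smallest p were Cmc2, which acts in complex IV assembly, at 23.6 ± 4.0 CPM in KO (SD, n = 3) and 15.4 ± 0.24 CPM in WT (n = 2) and a log2 fold change of 0.62 ± 0.18 (edgeR adjusted p = 0.12), and Ndufaf7, which acts in complex I assembly, at 0.45 ± 0.13 (edgeR adjusted p = 0.131). Among cytochrome c, coenzyme Q and carrier genes, 15 of 26 were above 0 with a median of 0.03. The adenine nucleotide carrier Slc25a5 had a log2 fold change of 0.09 ± 0.09 and the cytochrome c gene Cycs one of 0.73 ± 0.42 at 3.28 CPM in KO and 1.98 CPM in WT libraries.

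Regulators of mitochondrial biogenesis had 12 of 23 above 0 and a median of 0.002. Nrf1, Gabpa and Yy1, whose proteins bind the promoter motifs above, had log2 fold changes of 0.12 ± 0.11, -0.08 ± 0.09 and 0.19 ± 0.10 (edgeR adjusted p = 0.671, 0.778 and 0.414), and Tfam, which packages and transcribes mitochondrial DNA, one of 0.06 ± 0.11. Of 18 citric acid cycle genes 14 were above 0 with a median of 0.05. The mitochondrial ribosome had 53 of 77 genes above 0 and a median of 0.10, with Mrps6 at 0.77 ± 0.19 (edgeR adjusted p = 0.0585). For comparison, 48 of 83 cytosolic ribosome genes, which are also short, were above 0 with a median of 0.05. These lists share the libraries of the members, KO library 1 included, and none of the differences between lists was tested.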

How the data were processed

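Stranded libraries were made from messenger RNA, per the labels' protocols. The authors deposited unnormalized counts of reads for 33862 RefSeq transcripts. The submitters' processing notes name mm9 (NCBIM37), STAR, featureCounts and Subread 1.4.5-p1. No source used here gives the settings, the use of strand or the treatment of shared reads, so antisense, overlapping and near-identical genes may share reads. Groups came from the titles.

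Names came from RefSeq (GRCm38.p6) for 33485 transcripts and GENCODE M21 for 188, and 189 kept their identifier. The transcript with the most counts was kept for each gene. In 12 of 14 members with more than 1 transcript the lowest had at least 90% of the counts of the highest. The filter was filterByExpr and the scaling TMM. The test was that of edgeR 4.0.16 in R 4.3.3 (robust quasi-likelihood test, two-sided, Benjamini-Hochberg over 14565 genes, threshold 0.05), which was tested on simulated data. The common biological coefficient of variation was 18.9%. A test on 3 and 2 libraries resolves only changes larger than the spread between them. Log2 deviations used CPM with a prior count of 2. Of 87 members, Atp5g2, Cox7b2, Cox8b and Cox8c did not pass the filter.

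Alternatives were RLE and upper quartile scaling, DESeq2 1.42.0, limma 3.58.1 (voom with sample weights), no filter, summed transcripts, other thresholds, a replicate block, each library left out in turn, and a length offset (lowess, span 0.3). Members given in full were the called ones, the 3 with the smallest p and the 2 highest per kilobase in each complex, and isoform sets. Some genes are not reported here, though they are in the counts of members. Any other member was named with its values known. The members and lists were chosen with earlier results of these data known. Python 3.11.15 and scipy 1.17.1 were also used.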

Additional observations from a re-analysis of the deposited data

How the results depend on the processing

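The count of members called higher was 1 and became 2 without a filter on low counts (Ndufa4 and Ndufab1), 0 with summed transcripts, 0 with the replicate block, 3 with DESeq2 (Ndufa4, Ndufab1 and Atp5j2), 2 at an adjusted p under 0.10 and 8 at an unadjusted p under 0.05, and it ranged from 0 to 1 when a library was left out. Leaving out KO library 3, WT library 1 or WT library 2 gave 0. The count of members lower was 0 under every alternative run. Calls over all tested genes moved as well. They were 287 in the main fit, 455 without the filter, 219 with summed transcripts, 160 with the block and 575 with DESeq2. When a KO library was left out they were between 135 (KO library 3) and 675 (KO library 1). With 1 WT library, the lone sample is assumed to vary like the other group, and most calls over all tested genes were lost too. The members' median log2 fold change ranged from 0.03 to 0.14 over left-out libraries. The correlation across genes of deviations from the group mean was 0.04 for KO and WT library 1 and 0.02 for KO and WT library 2. The deviations of the WT libraries mirror each other, so these values cannot decide whether the shared numbers pair the libraries. The adjusted p of Ndufa4 was 0.0798 with summed transcripts and 0.0555 with the replicate block, by edgeR. Among members given in full, these log2 fold changes, each smaller than its SE over all libraries, changed sign. With the replicate block, Cox6a2 was 0.069 and Sdhd 0.025. With the length offset, Ndufv3 was -0.0050 and Uqcrc2 -0.0037. With limma, Cox4i2 was -0.062, Cox6b2 -0.046, Ndufv3 -0.035 and Sdhc -0.013. When a library was left out, Atp5a1 ranged from -0.044 to 0.025, Atp5g3 from -0.075 to 0.028, Cox4i2 from -0.14 to 0.29, Cox6a2 from -0.40 to 0.086, Cox6b2 from -0.17 to 0.46, Ndufv3 from -0.083 to 0.13, Sdhc from -0.043 to 0.078, Sdhd from -0.034 to 0.030 and Uqcrc2 from -0.026 to 0.066. The cause of these changes was not tested. Few counts limit the 8 members with under 100, and in those of them that were tested the SE of the log2 fold change was 1.24 to 1.60. Some members above that were imprecise too, as Atp5md, with 139 counts, had a log2 fold change of 1.11 ± 0.95. The smallest detectable change was not computed for any member.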
